A study of Mus musculus with 12 samples.

Results

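The genes described are 10 members of the CREB and ATF family of basic leucine zipper transcription factors, Creb1, Creb3, Creb5, Crem, Atf1, Atf2, Atf3, Atf4, Atf5 and Atf6. They were measured in mouse TM3 cells, a line derived from Leydig cells of the immature Balb/c mouse testis, after exposure to methoxyacetic acid (MAA), the active metabolite of the solvent ethylene glycol monomethyl ether and a testicular toxicant. The members were taken by gene name, with earlier results of these data known. The gene name column of the deposited scanner files holds accessions in place of symbols, and 0 of the member names occur in it, so probes were assigned to symbols through RefSeq accessions. In this way 19 probes of 9 genes were found among the 15980 named genes of the arrays, and Atf6 had no named probe. Crem had 5 probes, Atf2 4, Atf1 3, Creb1 2, and each of the other 5 genes had 1. Probes of a gene share the RNA and the arrays and are not replicates of each other.

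The groups were TM3 cells treated with 5 mM MAA for 3 h, 8 h or 24 h and with 1 mM MAA for 3 h, 8 h or 24 h. The reference on each array was RNA of time-matched cells given medium without MAA. There were 2 arrays for each of the 6 treatments, 12 in all, and each array compared a pool of 3 treated cultures with untreated cells. The pools of treated cells were separate on the pair of arrays of a treatment, and the dyes were exchanged between them. The arrays at 5 mM and 1 mM of the same time may share untreated cultures, so the responses at the 2 concentrations are given side by side and are not independent of each other.

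The CREB, CREM and ATF1 proteins bind the cAMP response element (CRE) as dimers and recruit the coactivators CREBBP and EP300 when protein kinase A phosphorylates them. In Leydig cells luteinizing hormone acts through cAMP and protein kinase A to raise steroid production, and Star, which carries cholesterol into mitochondria, is a well known CRE-dependent gene of that response. Other members act in stress pathways: ATF4 and ATF5 are translated when the initiation factor eIF2 alpha is phosphorylated, ATF6 and CREB3 are released from membranes by proteolysis, and ATF3 is induced early by many stresses. Array signals report transcript levels in bulk RNA only, and fewer cells with a transcript cannot be told apart from less of it in each cell.

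Several of these genes have binding motifs for the same family in their own promoters, and the 5 windows below are shown because they hold those motifs in genes that moved or that define the stress branch. The promoter sequences are those of RefSeq for GRCm38.p6, from 250 bases before to 50 bases after a start. They matched 8 of the 10 genes, with 10 windows, because Creb5 and Atf5 have more than 1 start in the table. Crem and Atf6 had no window. The motifs searched on both strands were the full CRE TGACGTCA, its variant TGACGTAA, the short CRE TGACG, which lies within both, and the composite ATF and C/EBP motif TGATGNAA. The full CRE was in 1 of the 10 windows and in 1.79% of all 32851 windows of this length. The variant was in 1 of the 10 and in 0.499% of all windows, the short CRE in 4 and in 20.8%, and the composite motif in 3 and in 3.97%. The sequences run 5′ to 3′ on the strand of the gene and show the bases before the transcription start, from 20 bases before the first motif to 20 bases after the last or to the start, and at most 30 bases in Creb5, whose starts lie within its annotated span. Capitals mark the motifs on either strand.
Creb5, first start, chr6:53287256-53287284, plus strand: cgTGACGTCAccgggggggTGATGTAAtg
Creb5, second start, chr6:53573279-53573308, plus strand: gggccagcgcaTTACATCAtctcttggcct
Atf3, chr1:191183334-191183463, minus strand: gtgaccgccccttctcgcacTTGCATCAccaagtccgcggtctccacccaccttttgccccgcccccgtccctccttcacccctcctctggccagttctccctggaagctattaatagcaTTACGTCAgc
Atf1, chr15:100227749-100227793, plus strand: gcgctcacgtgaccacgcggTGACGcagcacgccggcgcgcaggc
Atf4, chr15:80255152-80255183, plus strand: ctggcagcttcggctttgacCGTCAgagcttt
In the Creb5 window the full CRE lies 45 to 38 bases before the start, and in the Atf3 window the variant lies 10 to 3 bases before it. A match describes letters in a window and says nothing about whether a factor bound there.

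All 19 member probes were well above background in both channels on all 12 arrays and none was saturated. Over the arrays, 62.2% to 69.3% of all probes were well above background in the MAA channel and 61.5% to 70.5% in the control channel. Of the 7 Leydig cell markers, Star, Cyp17a1 and Insl3 were above background in untreated cells on all 12 arrays and Nr5a1 on 8, whereas Lhcgr, the luteinizing hormone receptor, Cyp11a1 and Hsd3b1 were above background on none. Markers of other testis cells were mixed: Sox9, Gata4, Ddx4, Acta2 and Cnn1 were above background on all 12 arrays, Sycp3 and Myh11 on 5, Amh and Fshr on 2 and Dazl on 1, while Ptprc and Adgre1 of macrophages and Pecam1 and Cdh5 of endothelium were above background on none. Values below are log2 ratios of MAA-treated to untreated cells, so that -1 is a 2-fold lower and 1 a 2-fold higher level. A gene is said to have risen or fallen where the limma fit across all 41174 probes gave a Benjamini-Hochberg adjusted p under 0.05, and is said to be called where its unadjusted p was under 0.005 and its change exceeded the fold threshold, which was 2 for the higher concentration and 1.5 for the lower.

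At 5 mM MAA members of the family moved at every time and in both directions. After 3 h, 10 member probes had fallen (all 3 of Atf1, all 5 of Crem, Atf4 and Atf5) and 3 had risen (Atf3, Creb3 and Creb5). That is 13 of 19 probes, against 24% of all probes, of which 12.3% fell and 11.8% rose. After 8 h 4 had fallen and 3 had risen, or 7 of 19 against 30.4% of all probes (15% lower and 15.4% higher). After 24 h 7 had fallen and 3 had risen, or 10 of 19 against 30.4% (15.8% lower and 14.6% higher). Counted by gene, 7 genes passed at 3 h, 5 at 8 h and 7 at 24 h. A gene counts here if any of its probes passed. The share of all genes that pass in this way was not counted, so these numbers cannot be read against the shares of probes. Creb1 and Atf2 passed the test at no time and at neither concentration in this fit, although 1 probe of each passed under some of the alternatives given below. The median size of the change over the 19 probes was 0.61 at 3 h, where it was 0.18 over all probes, and it was 0.22 at 8 h and 0.30 at 24 h, where all probes had 0.23 and 0.24. The shares and medians of all probes include probes not well above background, unlike the members. The 2 sets were not matched for signal.
Under the stricter rule with a fold threshold, 2 member probes were called at 3 h, 1 at 8 h and 1 at 24 h, where 3.76%, 5.55% and 5.62% of all probes were called. These were Atf1 (lower) and Creb5 (higher) at 3 h, Atf3 (higher) at 8 h and Atf5 (lower) at 24 h. The median over all probes was -0.10 at 5 mM and 3 h, and when each array was centred on its median it was 0.01 and the share of called probes that were higher went from 53.8% to 67.3%. No member that had risen or fallen changed direction.

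At 1 mM the limma fit called 0 member probes at 3, 8 and 24 h, while 1.95%, 2.37% and 4.68% of all probes were called. At an unadjusted p under 0.05 there were 8, 3 and 2 of 19 member probes, against 16.8%, 18.8% and 25.4% of all probes. By adjusted p the 3 Atf1 probes fell at 3 h, Atf5 fell and Atf3 rose at 8 h, and Atf3 rose at 24 h. These were 3, 2 and 1 of 19 probes, against 4.62%, 5.53% and 11.3% of all probes. None of these 6 calls held when the arrays were centred or when the 6 arrays at 1 mM were fitted alone. The 2 arrays of a treatment agreed poorly at 1 mM. Over all probes their log2 ratios correlated with Pearson r of -0.13 at 3 h, 0.13 at 8 h and 0.31 at 24 h. At 5 mM r was 0.50, 0.63 and 0.64.

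**Figure D1:**
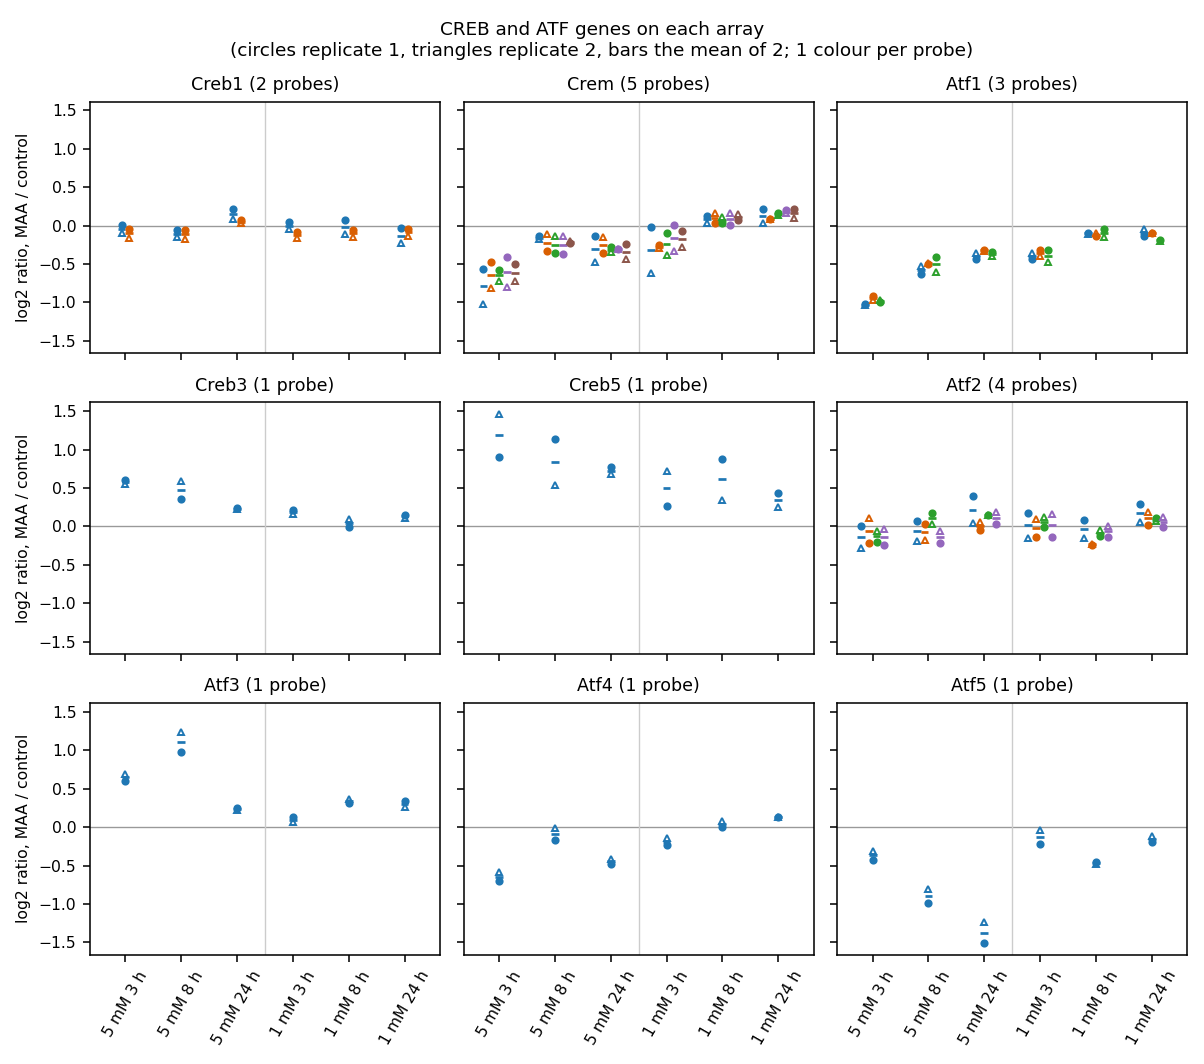
Log2 ratio of MAA-treated to untreated cells (vertical axis) for the 9 genes with probes, in the 6 treatments (horizontal axis). Each point is 1 array, circles for replicate 1 and triangles for replicate 2, the bars are means of 2 arrays, and each colour is 1 probe. Atf1 lies below 0 on every array, Creb5 and Atf3 above 0 on every array, and the Atf5 ratio reaches -1.51 at 5 mM and 24 h.

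In the cAMP-responsive branch Atf1 and Crem fell, and Creb1 did not pass the test. Atf1 (chromosome 15, 100227859 to 100261248, plus strand) encodes an activator related to CREB. With probe A_52_P228079 its log2 ratio on the pair of 5 mM arrays was -1.02 and -1.04 at 3 h, -0.63 and -0.53 at 8 h, and -0.43 and -0.35 at 24 h. Both arrays of a time lay lower than both arrays of the next time, with no overlap. How many of all probes separate in this way was not counted, here or for the genes below, so it is a description only. The means were -1.03, -0.58 and -0.39, each with a standard error of 0.06 (n = 2 arrays), and the limma adjusted p was 3.85e-05, 0.000252 and 0.00181. The level was 2.04-fold lower at 3 h, 1.5-fold lower at 8 h and 1.31-fold lower at 24 h.
At 1 mM the same probe gave -0.43 and -0.36 at 3 h, then -0.09 and -0.10 at 8 h and -0.13 and -0.05 at 24 h. The 1 mM mean at 3 h, -0.39, therefore equalled the 5 mM mean at 24 h to 2 decimals. The other 2 Atf1 probes gave means of -0.94 and -0.98 at 5 mM and 3 h, and the 3 probes correlated across the 12 arrays with Pearson r of 0.948 to 0.984. All ratios of Atf1, 18 at each concentration, lay below 0. Probe A_52_P32756 no longer passed at 5 mM and 24 h without either of those arrays. Only probe A_52_P228079 passed the 2-fold threshold, and it missed it at -0.92 when the arrays were centred.

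Crem encodes activator and repressor isoforms, among them the cAMP-inducible repressor ICER, and these probes do not separate isoforms. Its 5 probes had mean ratios from -0.79 to -0.60 at 5 mM and 3 h, with adjusted p from 0.00153 to 0.0102. With probe A_52_P460957 the arrays gave -0.50 and -0.72 at 3 h, -0.22 and -0.20 at 8 h, and -0.24 and -0.44 at 24 h. The 3 h pair lay below the pairs of the later times. All 30 ratios of Crem at 5 mM lay below 0, but at 8 h none of the 5 probes passed the test, and at 24 h 2 did (means -0.31 and -0.34), neither of them without either array of 5 mM and 24 h. After normexp background correction and loess the 3 h means of the 5 probes were smaller, from -0.45 to -0.34, and still passed. With that correction probe A_52_P391098 was at -0.17 at 24 h and no longer passed (limma adjusted p = 0.0916), probe A_52_P460957 was at -0.21 and passed, and 1 probe newly passed at 8 h (-0.20). With the slide as a block 2 other probes newly passed at 24 h. Without replicate 2 of 5 mM and 3 h, the array with the lower ratios, probes A_51_P423976 and A_52_P391103 no longer passed at 3 h. At 1 mM the means ran from -0.31 to -0.16 at 3 h, from 0.07 to 0.11 at 8 h and from 0.09 to 0.18 at 24 h, and no probe passed.

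Creb1 encodes CREB itself, the factor after which the element is named. Its 2 probes gave mean ratios between -0.13 and 0.16 over the 6 treatments, and single arrays between -0.23 and 0.22. The lowest adjusted p was 0.198. At 5 mM and 24 h probe A_52_P174396 (0.16) newly passed with the replicate number as a block (limma adjusted p = 0.0217) and after normexp and loess (0.20, adjusted p = 0.0415). The standard errors were 0.08 and 0.06, and each mean rests on 2 arrays. The intervals of the difference between 5 mM and 1 mM at 3 h spanned -0.30 to 0.23 over the 2 probes.

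Creb3 and Creb5 rose at 5 mM and Atf2 did not pass the test. Creb5 encodes a relative of ATF2 that pairs with Jun proteins, and its gene spans chromosome 6, 53287226 to 53700364. Its log2 ratio was 0.91 and 1.47 at 3 h, 1.14 and 0.53 at 8 h, and 0.77 and 0.68 at 24 h. All 12 arrays lay above 0, but the pairs at 3 h and 8 h differed by 0.56 and 0.61, the widest gaps among member probes at those times, and the times overlapped. The means were 1.19, 0.84 and 0.73 with a standard error of 0.21, and the limma adjusted p was 0.00470, 0.0177 and 0.0325. The 2.28-fold increase at 3 h was called, but its adjusted p no longer passed without replicate 2 of 5 mM and 3 h, where the value was 0.91, and the fold threshold was missed at 0.99 after normexp background correction and loess. The 8 h increase no longer passed without replicate 1 of 5 mM and 8 h (0.53), nor the 24 h increase when the arrays were centred or without any one of the 24 h arrays. At 1 mM the 2 arrays gave 0.26 and 0.73 at 3 h, 0.88 and 0.35 at 8 h, and 0.43 and 0.26 at 24 h, and none of these means passed.
A second probe, A_52_P515959 for AK084024, carries the name Creb5 only in the study's tables of responding probes and was therefore kept apart and left untested. Its log2 ratio was 1.85 and 1.94 at 5 mM and 3 h, where neither array had an untreated signal well above background, which makes it at least 2.42-fold higher. At 1 mM and 3 h it was 0.85 and 1.04, at least 1.46-fold higher by the same bound. At 5 mM and 8 h it was 0.40 and 0.09, and at 24 h 0.32 and 0.80. At 1 mM it was 1.27 and 0.27 at 8 h, and -0.06 and -0.07 at 24 h.

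Creb3 encodes a factor held in the endoplasmic reticulum and Golgi membranes until it is cleaved. Its ratio was 0.60 and 0.55 at 5 mM and 3 h, 0.35 and 0.59 at 8 h, and 0.24 and 0.22 at 24 h. The 24 h pair lay below both earlier pairs. The means were 0.58, 0.47 and 0.23 with a standard error of 0.07 and limma adjusted p of 0.000871, 0.00162 and 0.0406. The increase was 1.49-fold at 3 h, and the small one at 24 h passed in 9 of 21 alternatives. Atf2, a stress kinase target, had mean ratios between -0.23 and 0.22 over its 4 probes and the 6 treatments, with a lowest adjusted p of 0.154. With the replicate number as a block, probe A_51_P388872 newly passed at 5 mM and 3 h (-0.14, limma adjusted p = 0.0403), at 5 mM and 24 h (0.22, adjusted p = 0.00546) and at 1 mM and 24 h (0.17, adjusted p = 0.0287), and with the slide as a block at 5 mM and 24 h (0.21, adjusted p = 0.0469). Its probes did not track each other across the 12 arrays, with r from -0.06 to 0.63.

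Atf3 (chromosome 1, 191170296 to 191183333, minus strand) encodes a repressor that is itself a CREB and ATF4 target. Its ratio was 0.60 and 0.70 at 5 mM and 3 h, 0.98 and 1.24 at 8 h, and 0.24 and 0.23 at 24 h. The 3 pairs of arrays did not overlap, and the highest was at 8 h. The means were 0.65, 1.11 and 0.24 with a standard error of 0.07, and the limma adjusted p was 0.00064, 4.36e-05 and 0.0446. The 8 h change was 2.16-fold. On replicate 1 alone it was 0.98, just short of 2-fold, and its adjusted p passed in all 21 alternatives, as it did at 3 h. The 24 h increase passed in 9 of 21.
At 1 mM Atf3 gave 0.13 and 0.07 at 3 h, 0.32 and 0.37 at 8 h, and 0.35 and 0.27 at 24 h. All 12 arrays lay above 0. At 24 h the 1 mM pair lay above the 5 mM pair, and the difference of -0.07 between 5 mM and 1 mM did not pass the test (adjusted p = 0.735 in limma, 95% interval from -0.31 to 0.17).

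Atf4 and Atf5 encode factors of the amino acid and eIF2 alpha response, and both fell with different timing. Atf4 (chromosome 15, 80255184 to 80257545) had ratios of -0.70 and -0.59 at 5 mM and 3 h, -0.17 and -0.01 at 8 h, and -0.48 and -0.41 at 24 h. It was lower at 3 h and 24 h and near 0 between them. The means were -0.64, -0.09 and -0.45 with a standard error of 0.07, and the limma adjusted p was 0.000408, 0.424 and 0.00177. The difference from 3 h to 8 h passed the test, but not when the arrays were centred or with 5 mM fitted alone. From 8 h to 24 h the difference of -0.36 did not pass (limma adjusted p = 0.0576). At 1 mM the means were -0.19, 0.05 and 0.14, and none passed.
Atf5 (chromosome 7, 44812256 to 44816658) went the other way in time. Its ratio was -0.42 and -0.30 at 5 mM and 3 h, -0.99 and -0.81 at 8 h, and -1.51 and -1.23 at 24 h. Each pair lay below the pair before it. The means were -0.36, -0.90 and -1.37 with a standard error of 0.09, and the limma adjusted p was 0.0208, 0.000233 and 4.84e-05. The level was 1.29-fold, 1.86-fold and 2.59-fold lower, and the 24 h change was the largest of any member. The 3 h decrease no longer passed when the arrays were centred, at 5 mM alone or without either of its own arrays. At 1 mM Atf5 gave -0.22 and -0.03 at 3 h, -0.45 and -0.48 at 8 h, and -0.20 and -0.12 at 24 h, so that the decrease was deepest at 8 h.

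The concentrations were compared directly within the fit. At 3 h 5 of 19 member probes differed between 5 mM and 1 mM, against 3.4% of all probes: the 3 of Atf1, by -0.64, -0.58 and -0.58, Atf4 by -0.46 and Atf3 by 0.55. At 8 h 5 differed, against 10.1%: the 3 of Atf1, by -0.48, -0.37 and -0.41, Creb3 by 0.43 and Atf3 by 0.77. At 24 h 3 differed, against 8.41%: Atf5 by -1.21, Atf4 by -0.58 and 1 Crem probe by -0.50. The Atf3 difference at 8 h (limma adjusted p = 0.00572, 95% interval from 0.53 to 1.01) and the Atf5 difference at 24 h (adjusted p = 0.00249, from -1.51 to -0.92) passed in all 20 alternatives. The others did not: centring left 0 differences at 3 h, 1 at 8 h and 1 at 24 h, and leaving out 1 array left 0 to 4, 1 to 3 and 1 to 2. Over all probes centring took the counts from 1399, 4162 and 3462 to 220, 1491 and 1525. Without either array of 1 mM and 3 h, or without replicate 2 of 5 mM and 3 h, no member difference was left at 3 h.

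Between times at 5 mM, 4 of 19 member probes differed from 3 h to 8 h, against 5.1% of all probes. The 3 Atf1 probes were higher at 8 h by 0.45, 0.45 and 0.48 and Atf4 by 0.56, that is, closer to 0. From 8 h to 24 h 1 probe differed, against 8.91%: Atf3 was lower by 0.87 on the log2 scale (a difference of -0.87, limma adjusted p = 0.00404). From 3 h to 24 h 5 differed, against 15.8%: the 3 Atf1 probes by 0.64, 0.62 and 0.61, Atf3 by -0.41 and Atf5 by -1.01. The Atf5 difference passed in all 21 alternatives (range -1.15 to -0.87), and the Atf3 difference from 8 h to 24 h in 20 of 21. The 4 differences from 3 h to 8 h were all lost without either array of 5 mM and 3 h or either of 5 mM and 8 h. For Crem the 5 probes were 0.35 to 0.64 higher at 8 h than at 3 h, with adjusted p from 0.117 to 0.319.

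**Figure D2:**
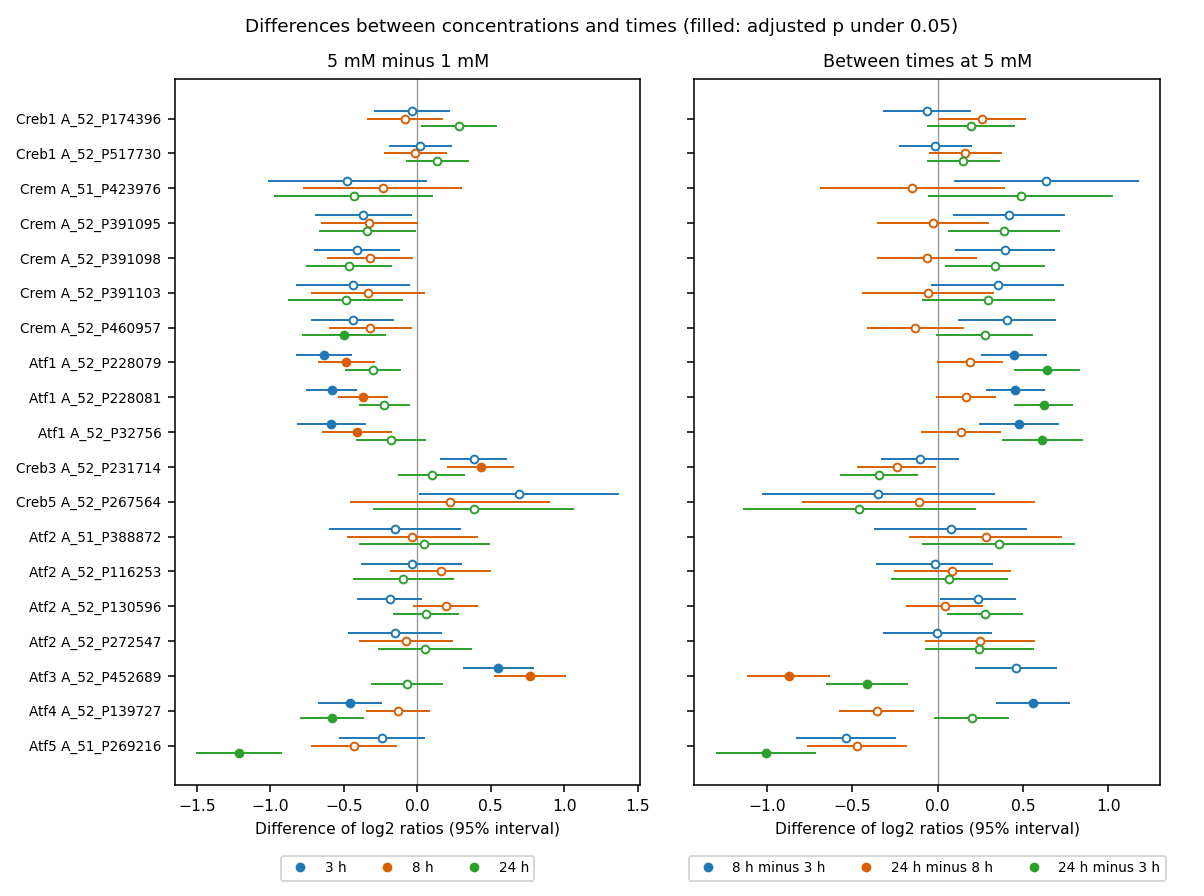
Difference of log2 ratios (horizontal axis) with 95% intervals for each member probe (vertical axis), between 5 mM and 1 mM at each time in the left panel and between times at 5 mM in the right panel. Filled points have an adjusted p under 0.05. The Atf5 difference of -1.21 between concentrations at 24 h lies farthest from 0, while the intervals of Creb1 and Atf2 cross or lie close to it.

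The ratios are relative to untreated cells of the same time, so the signal of each channel was also followed, after scaling the channels of all arrays to one distribution. These levels are a description, with no test, since the untreated cultures may be shared between arrays. In untreated cells the Atf3 signal was 646 to 672 at 3 h, 430 to 541 at 8 h and 756 to 813 at 24 h (4 arrays each). In cells treated with 5 mM it was 1012 and 1089 at 3 h, 1066 and 1103 at 8 h, and 946 and 890 at 24 h. The treated level at 8 h thus lay within or just above its 3 h range, while the untreated level lay below all its 3 h values.
For Atf5 the untreated signal was 25979 to 30631 at 3 h, 25394 to 27659 at 8 h and 42408 to 46675 at 24 h. The treated signal was 22876 and 22609 at 3 h, 13533 and 14504 at 8 h, and 15787 and 19871 at 24 h. From 8 h to 24 h both channels were higher, the untreated one by more.
All 5 Crem probes were higher in untreated cells at 8 h than on any untreated array at 3 h, by 1.89-fold to 1.96-fold, and 17.6% of all probes were higher in this way. With probe A_52_P460957 the untreated signal was 214 to 254 at 3 h, 434 to 463 at 8 h and 361 to 391 at 24 h, and in cells treated with 5 mM it was 151 and 154, then 394 and 393, then 306 and 282. Crem therefore went up from 3 h to 8 h in both channels.
At 24 h, 9 member probes of 5 genes were above all 3 h values in untreated cells (22.3% of all probes) and 6 were below (23.9%). Untreated Creb5 was 219 to 318 at 3 h, 231 to 294 at 8 h and 593 to 656 at 24 h, a 2.36-fold higher mean than at 3 h. Treated Creb5 was 592 and 605 at 3 h, 550 and 416 at 8 h and 1017 and 1035 at 24 h. At 3 h of 5 mM 1 of the 2 treated arrays was therefore within the range of untreated cells at 24 h and the other just below it. Untreated Creb3 went from 2601 to 2881 at 3 h to 4146 to 4490 at 24 h. Both Creb1 probes were lower in untreated cells at 24 h than at 3 h, with 596 to 677 against 856 to 954 for probe A_52_P174396.

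**Figure D3:**
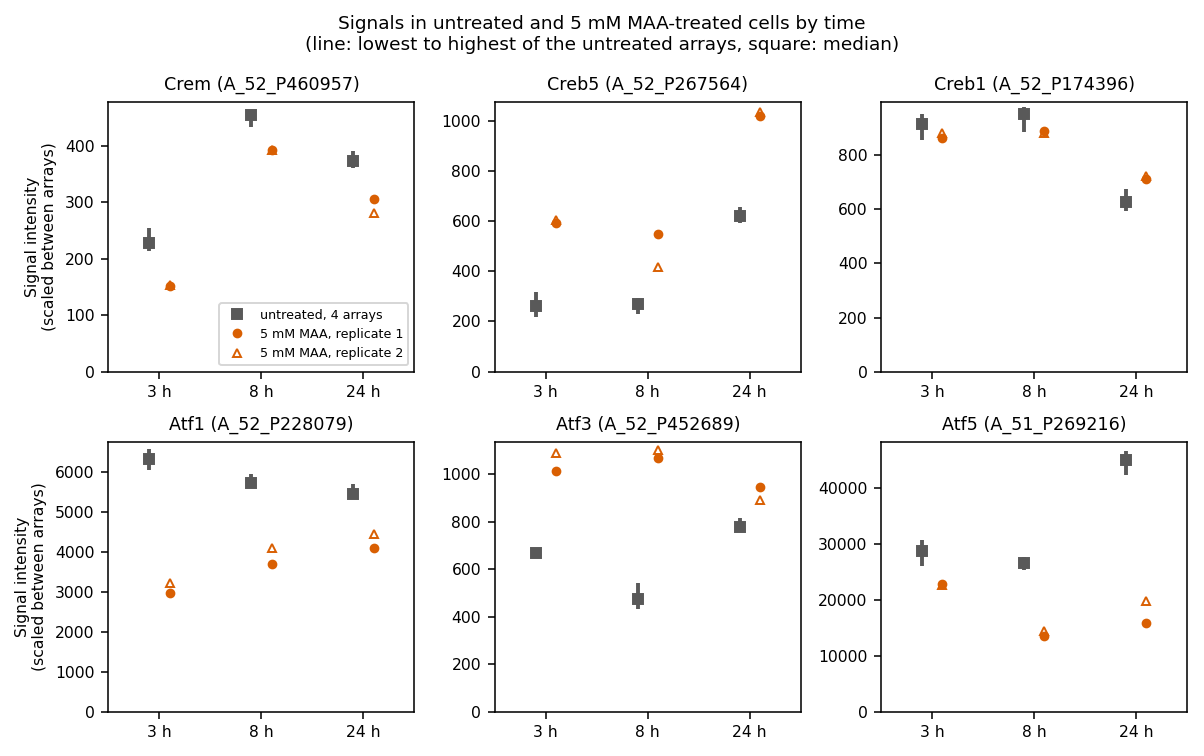
Signal intensity, scaled between arrays and starting at 0 (vertical axis), by time (horizontal axis) for 1 probe each of 6 genes. Grey lines span the lowest to the highest of 4 untreated arrays with the median as a square, and orange points are the 2 arrays of 5 mM MAA. Untreated Atf3 dips at 8 h to 430 to 541 while treated Atf3 is at 1066 and 1103, and untreated Atf5 is highest at 24 h.

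Genes around the family were counted from 6 lists. Each count below is read against the 10.1% of all probes that were called at 5 mM at 1 or more times. The lists overlap in 4 genes (Nfil3, Ddit3, Cebpb and Xbp1), and genes named beside the one with the largest change in each direction were chosen after their values were seen. The lists themselves were chosen with earlier results of these data known.

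The list of CREB target genes held 21 genes with 30 probes, of which 6 (20%) were called, all of them higher. After 3 h of 5 mM, 18 of 30 probes had risen and 1, Gem, had fallen (-0.80), where 11.8% of all probes rose and 12.3% fell. The median was 0.56 at 3 h, 0.36 at 8 h and 0.18 at 24 h, where all probes had -0.10, -0.04 and 0.03. Egr1, an immediate early zinc finger factor that serum response elements also control, was at 2.18 ± 0.12 (SE, n = 2 arrays) at 3 h, 0.23 at 8 h and 1.72 at 24 h. The other called probes at 3 h were Nr4a1 (1.92), a nuclear receptor of the steroidogenic response, Fos (1.84), Ier2 (1.24), the clock gene Per1 (1.08) and Pck1 (1.14), which was not well above background in both channels on any array. The 2 Star probes rose at 3 h (0.94 and 0.63). At 1 mM the medians were 0.10, 0.01 and 0.02. By adjusted p 7 of 30 probes rose and 0 fell at 1 mM and 3 h, against 4.62% of all probes in either direction. Egr1 (0.71) and Nr4a1 (0.88) were called higher there. At 1 mM and 8 h 3 rose and 1 fell, against 5.53%, and at 24 h 4 rose and 0 fell, against 11.3%. Over the alternatives 4 to 10 probes of this list were called at 5 mM, 4 after normexp background correction and loess and 10 when the arrays were centred.

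The list of coactivators held 5 genes with 7 probes and 0 were called by limma's p with the fold threshold, while 6 had an unadjusted p under 0.05 at 1 or more times of 5 mM, as had 55.6% of all probes. By adjusted p 5 of 7 probes fell at 3 h: Crebbp (-0.86), both Ep300 probes (-0.54 and -0.66) and both Kat2b probes (-0.66 and -0.69), all of them histone acetyltransferases. Of all probes 12.3% fell at that time. Crtc2 rose (0.31) and Crtc3 did not pass (0.23). The median of the 7 was -0.66, where all probes had -0.10, and at 24 h it was -0.46, where all probes had 0.03.

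Of 36 genes with 55 probes in cAMP and protein kinase A signaling, 6 probes (10.9%) were called, near the share of all probes, and 2 were called after normexp and loess. Adcy1, an adenylyl cyclase, was at 0.65 at 3 h, 2.14 ± 0.11 (SE, n = 2 arrays) at 8 h and 0.48 at 24 h, and at 1 mM it was at 0.63, 1.57 and 1.98. Another of its 3 probes, well above background in both channels on 5 of 12 arrays, gave -0.30, -0.37 and -0.67 at 5 mM, so the probes of this gene disagreed in direction, and the third was well above background in both channels on none. Adcy7, another cyclase, was at -0.78, -1.18 ± 0.08 (SE, n = 2 arrays) and -0.66 at 5 mM.

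Among 18 other family members and related factors, with 22 probes, 3 (13.6%) were called. Cebpd, a C/EBP factor that can pair with family members, was at -1.74 at 3 h, -2.68 ± 0.12 (SE, n = 2 arrays) at 8 h and -1.60 at 24 h, and fell at 1 mM too, by 0.79, 0.73 and 0.98. Batf3, of the AP-1 group, was at 1.28 ± 0.14 (SE, n = 2 arrays) at 8 h. The close relatives of Creb3 did not move as one: at 24 h Creb3l3 rose (0.92), and Creb3l1 (-0.73), Creb3l2 (-0.55) and Creb3l4 (-0.68) fell.

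The ATF4 target genes and eIF2 alpha kinases, 29 genes with 40 probes, had 4 (10%) called, the share of all probes. At 8 h 12 probes had risen and 4 had fallen, where 15.4% of all probes rose and 15% fell. At 24 h 3 had risen and 8 had fallen, where 14.6% of all probes rose and 15.8% fell. Chac1, which degrades glutathione, rose at 8 h (1.15 ± 0.08, SE, n = 2 arrays) and was at 0.03 at 24 h. Slc7a11, the cystine importer, was lowest at 24 h of 5 mM (-1.70 ± 0.40, SE, n = 2 arrays), and both probes of Psph, an enzyme of serine synthesis, were called lower there (-1.06 and -1.05). Without replicate 2 of 5 mM and 24 h, 1 probe of this list was called. Ddit3, the pro-apoptotic partner known as CHOP, was at 0.01, 0.09 and -0.05 at 5 mM and did not pass. At 1 mM and 24 h Ddit3 rose (0.40, limma adjusted p = 0.00513), and Chac1 was called higher (0.65). At that treatment 7 of the 40 probes of the list had risen and 0 had fallen, where 11.3% of all probes passed in either direction. The median was 0.15, where all probes had -0.07. Slc7a11 was at -1.64 at 1 mM and 8 h and was called lower there.
Of the ATF6 and endoplasmic reticulum stress targets, 23 genes with 38 probes, 0 were called by limma's p with the fold threshold, with 29 at an unadjusted p under 0.05 at 1 or more times of 5 mM, against 55.6% of all probes. By adjusted p 8 rose and 4 fell at 3 h, against 11.8% and 12.3% of all probes. At 24 h 5 rose and 14 fell, against 14.6% and 15.8%, and the median was -0.20. Herpud1 was at -0.73 at 3 h and Xbp1 at -0.88 at 8 h, while the 3 Pdia6 probes rose at 24 h (0.70, 0.38 and 0.35). These went against most of the list at 3 h and 24 h. Among those that rose at 3 h were Pdia4 (0.61), Sdf2l1 (0.58), Hyou1 (0.57) and Creld2 (0.53). Every Dnajc3 probe fell at 24 h (-0.54 to -0.47). At 1 mM and 8 h 6 probes rose and 1 fell, against 5.53% of all probes in either direction. At 1 mM and 24 h 0 rose and 5 fell, against 11.3%.

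The profiles of the 3 member probes with the widest range over the treatments were compared with 15037 probes of named genes across the 12 arrays. For Atf1 the most similar genes were Mkks (Pearson r = 0.989) and Epc2 (0.988), for Atf5 Bcat1 (0.975) and Acat3 (0.975), and for Atf3 Armc9 (0.956) and Fbxo45 (0.953). These correlations run over arrays that share treatments, slides and perhaps untreated cultures, and they describe likeness only.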

How the data were processed

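RNA of TM3 cells treated with MAA and of untreated cells was compared on 12 two-colour Agilent arrays on 3 slides. The authors deposited the scanner output of Feature Extraction 9.5.3.1, whose signal intensities had their background subtracted and their dyes balanced by linear and LOWESS normalization, together with log10 ratios that they had turned to MAA over control.

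Of 45018 spots per array, 1639 control spots and 124 to 208 outlier spots were left out, and repeated spots were averaged, leaving 41174 probes. The processed intensities gave log2 ratios, with the sign turned where MAA was in the green channel, without centring. Symbols came from RefSeq accessions for 22072 of the 22082 named probes, since the gene name column holds accessions. All arrays were fitted in limma 3.58.1 (with R 4.3.3, jsonlite 2.0.0 and version 1.17.8 of the data.table package) with 1 coefficient per treatment, 6 residual and 1.515 prior degrees of freedom. Standard errors come from this fit (median 0.150 over all probes), and n is the number of arrays, whose small number limits the precision. Concentrations and times were compared as contrasts. Rosetta Resolver's error model, which the study used for its p-values, was not run. Levels in single channels were compared after Aquantile normalization. Figures were drawn with Python 3.11.15 and matplotlib 3.10.9. The steps were tested on simulated data.

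All member probes are reported, with both arrays for those called. In each list the called genes with the largest increase and decrease at 5 mM were named, among probes that both arrays measured well above background in a channel. The members and lists were chosen with earlier results of these data known. Alternatives were normexp (offset 50) with loess, the deposited ratios, centring, leaving out dim probes, keeping outlier spots, the replicate number or the slide as a block, 1 concentration alone, another call rule and leaving out each array in turn.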

Additional observations from a re-analysis of the deposited data

Results flagged for a closer look

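Differences between concentrations passed the limma contrast (adjusted p under 0.05) for 13 member values. At 3 h the 3 Atf1 probes differed by -0.64, -0.58 and -0.58, Atf4 by -0.46 and Atf3 by 0.55 between 5 mM and 1 mM. At 8 h the Atf1 probes differed by -0.48, -0.37 and -0.41, Creb3 by 0.43 and Atf3 by 0.77. At 24 h Crem (A_52_P460957) differed by -0.50, Atf4 by -0.58 and Atf5 by -1.21. Of all probes 3.4% differed at 3 h, 10.1% at 8 h and 8.41% at 24 h. Only Atf3 at 8 h and Atf5 at 24 h passed in all 20 alternatives.

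Differences between times at 5 mM passed for 10 member values. From 3 h to 8 h the Atf1 probes differed by 0.45, 0.45 and 0.48 and Atf4 by 0.56. From 8 h to 24 h Atf3 differed by -0.87. From 3 h to 24 h the Atf1 probes differed by 0.64, 0.62 and 0.61, Atf3 by -0.41 and Atf5 by -1.01. Of all probes 5.1%, 8.91% and 15.8% differed in these comparisons. Only the Atf5 difference passed in all 21 alternatives. The untreated signal moved between times for several of these genes, with a mean 1.57-fold higher at 24 h than at 3 h for Atf5 and 0.72-fold at 8 h relative to 3 h for Atf3, and its part in the differences between times was not tested. With 2 arrays per treatment no test for a single array standing apart could be made.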

How the results depend on the processing

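No result reversed. For single probes, 1895 values kept their side of the threshold under the alternatives other than leaving out an array, 71 newly passed and 29 no longer did, and the counts were 2602, 4 and 130 when an array was left out. The threshold here was the call with its fold rule for treatments and the adjusted p for differences. Most of the values were not called in the main fit. Rises and falls by adjusted p alone are not in these counts. Centring lost several of those, among them Atf5 at 5 mM and 3 h and Creb5 at 5 mM and 24 h. At 5 mM and 3 h 1 member probe was called after normexp and loess and 1 after centring. Of all probes 535 and 1649 were called there, and 1547 in the main fit. Member probes that differed between 5 mM and 1 mM numbered 0 at 3 h, 1 at 8 h and 1 at 24 h after centring, and at 24 h 6 with the deposited ratios, 6 with dim probes left out and 7 with the replicate block. From 3 h to 8 h the count was 0 after centring, 8 without dim probes, 8 with the replicate block, 9 with the slide as a block and 0 with 5 mM fitted alone. From 8 h to 24 h it was 3 after normexp, 4 with the deposited ratios, 3 without dim probes, 6 with the replicate block, 3 with the slide and 0 at 5 mM alone. From 3 h to 24 h it was 2 after centring, 8 without dim probes, 9 with the replicate block, 9 with the slide and 3 at 5 mM alone. Counts over all probes moved too. From 3 h to 8 h they were 2101 in the main fit, 640 after centring, 5271 with the replicate block and 0 at 5 mM alone. In the same order they were 3670, 1332, 7413 and 133 from 8 h to 24 h. From 3 h to 24 h they were 6510, 3932, 10570 and 2188. Between concentrations centring left 220, 1491 and 1525 at 3, 8 and 24 h, from 1399, 4162 and 3462. The cAMP list had 2 called probes after normexp, and the CREB target list 10 after centring. Leaving out 1 array gave 1 to 3, 1 to 1 and 1 to 1 called member probes at 5 mM and 3, 8 and 24 h, and 0 to 0 at 1 mM. The probe called at 8 h was not always the same, since on replicate 1 alone Atf3 was at 0.98, short of 2-fold. For differences between concentrations leaving out 1 array gave 0 to 4 at 3 h, 1 to 3 at 8 h and 1 to 2 at 24 h, and between times 0 to 3 (3 h to 8 h), 1 to 1 (8 h to 24 h) and 3 to 6 (3 h to 24 h). Over the lists it gave 1 to 4 (ATF4 targets), 0 to 1 (coactivators), 5 to 7 (CREB targets), 5 to 7 (cAMP), 3 to 4 (related factors) and 0 to 0 (ATF6 targets). Arrays outside a comparison also enter its spread. The cause of the other changes was not tested.

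Centring also moved the share of all differing probes that were higher, to 63.6%, 30.05% and 32.3% for the concentrations at 3 h and 8 h and for 8 h against 3 h, and to 63.9% and 40.9% for 24 h against 8 h and against 3 h. The replicate number marks the dye orientation, and the labels do not say that it pairs cultures across treatments. Deviations of same-numbered arrays correlated with r of 0.08 to 0.51 over 15 pairs of treatments, 14 of them over 0.1, so the pairing was used only as a replicate block here. All member probes were well above background, and the standard errors of their mean log2 ratios ran from 0.05 (Atf1) to 0.21 (Creb5).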
